A study of Mus musculus with 36 samples.

Results

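Megakaryocyte and platelet genes were compared between LT-HSC and HPC-1 of mice that differed in *Il27ra*, which encodes the receptor of IL-27, and in the agent infused. The genes were *Itga2b*, *Vwf*, *Pf4*, *Gp1ba*, *Gp1bb*, *Gp9*, *Itgb3*, *Selp*, *Clu* and *Fli1*, taken as every entry of the deposited count table whose Ensembl identifier carries one of these symbols, which gave 10 of 38887 genes. RNA was sequenced from 5000 cells per sample sorted out of BM, from a Lin−Sca-1+c-kit+ gate in which CD150+CD48− cells were taken as LT-HSC and CD150−CD48+ cells as HPC-1, the latter named ST-HSC in the sample labels. All mice lacked *Apoe* on the C57BL/6 background and carried *Il27ra* intact (*Apoe*-/-), disrupted in one copy (*Apoe*-/-*Il27ra*+/-, here *Il27ra*+/-) or in both (*Apoe*-/-*Il27ra*-/-, here *Il27ra*-/-). The disruption was germline, so that every cell of the animal carried it. WD was fed for 12 weeks beginning at 8 weeks of age, and the last 2 weeks included an infusion of PBS or of Ang II at 800 ng/kg/min. The 36 libraries formed 12 groups by their labels. LT-HSC gave 17 libraries: under PBS 1 *Apoe*-/-, 3 *Il27ra*+/- and 3 *Il27ra*-/-, and under Ang II 2, 4 and 4 of the same genotypes. HPC-1 gave 19 libraries: under PBS 2, 3 and 3, and under Ang II 3, 4 and 4, in that order. The labels give no sex and no sequencing batch, while mice of both sexes were used in the study. They tie no library to an animal, although the study gives its sample numbers in mice. P-values thus set a difference against the spread between these samples, and whether the libraries are independent is not known.

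Megakaryocytes descend from hematopoietic stem cells and shed platelets into the blood. Platelets adhere through the von Willebrand factor receptor (the products of *Gp1ba*, *Gp1bb* and *Gp9*) and aggregate through the fibrinogen receptor, an integrin made of the products of *Itga2b* and *Itgb3*, while their alpha granules carry von Willebrand factor, platelet factor 4 and P-selectin. In mouse BM, part of the most primitive stem cells already transcribe such genes, *Vwf* above all, a state known as platelet-lineage priming.

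Total counts per library ran from 1980283 to 6861078, with a median of 3139364. In LT-HSC the library labelled *Apoe*-/- PBS held 1980283 counts and the *Apoe*-/- Ang II libraries 2077699 and 2244419. The *Il27ra*+/- LT-HSC libraries held 2191163, 2560838 and 5271346 counts under PBS, and 2183648, 2568392, 4512346 and 6861078 under Ang II. The *Il27ra*-/- LT-HSC libraries held 2170180, 6806836 and 6578590 counts under PBS, and 2487152, 2320769, 4526734 and 6618618 under Ang II. Depth was thus uneven within the *Il27ra*+/- and *Il27ra*-/- groups, each of which mixed libraries under and over 4000000 counts. HPC-1 libraries ranged from 2272026 to 6318379 counts. Levels are given in CPM, counts relative to the library total scaled by edgeR's TMM factors, and the floor of 3 counts, which covers counting error only, lay between 0.437 and 1.51 CPM of the unscaled library totals. *Itga2b*, *Gp1ba*, *Itgb3*, *Selp* and *Fli1* exceeded 3 counts in 36 of 36 libraries, *Vwf* in 33, *Gp9* in 28, *Clu* in 24, *Pf4* in 21 and *Gp1bb* in 20.

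*Il27ra* itself was examined first, as a check of the labels. In LT-HSC its level was 23.8 to 42.7 CPM in the 7 *Il27ra*+/- libraries, 6.93 to 19.3 CPM in the 7 *Il27ra*-/- libraries, and 42.8 and 51.7 CPM in the *Apoe*-/- Ang II libraries. The LT-HSC library labelled *Apoe*-/- PBS stood at 17.1 CPM, within the *Il27ra*-/- range, and it is given by its values only. In HPC-1 the levels were 6.06 to 11.9 CPM in *Apoe*-/-, 5.46 to 16.5 CPM in *Il27ra*+/- and 4.63 to 11.1 CPM in *Il27ra*-/-, so that the gene checks the genotype labels of LT-HSC but not those of HPC-1. *Xist*, transcribed from the inactive X chromosome of female cells, reached 3527 to 4576 CPM in 12 libraries, among them *Il27ra*+/- PBS replicates 2 and 3, *Il27ra*-/- PBS replicates 2 and 3, and replicates 3 and 4 of *Il27ra*+/- and *Il27ra*-/- under Ang II in LT-HSC. None of the libraries labelled *Apoe*-/- was among them, and the LT-HSC libraries over 4000000 counts all were.

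Cell identity was checked with marker lists. A list of 10 LT-HSC genes, of which *Hlf* was the most abundant, summed to 1323 ± 252 CPM (SD, n = 15) in 15 of the 17 LT-HSC libraries and to 236 ± 71 CPM (SD, n = 19) in HPC-1. A list of 8 HPC-1 genes, of which *Mpo* was the most abundant in HPC-1 and *Cd34* in those 15 libraries, summed to 176 ± 90.5 CPM (SD, n = 15) in the latter and to 6326 ± 1246 CPM (SD, n = 19) in HPC-1. The remaining pair stood apart: the library labelled *Il27ra*-/- PBS LT-HSC replicate 2 held 277 CPM of LT-HSC markers and 5372 CPM of HPC-1 markers, and the library labelled *Il27ra*-/- Ang II LT-HSC replicate 2 held 817 and 1550 CPM. Both are called the doubtful libraries below, and the counts and fold changes of the 10 genes between LT-HSC and HPC-1 are given with and without them, whereas fits with no filter on low counts or with a covariate were made only with them, and the libraries under 4000000 counts include the second. The library labelled *Il27ra*-/- Ang II LT-HSC replicate 2 also held 7164 CPM of the 8 granulocyte markers, with *S100a9* the most abundant at 2178 CPM and none of the 4 defining markers at 0. In HPC-1, the *Apoe*-/- Ang II replicate 3 library carried 337 CPM of the 16 intestinal epithelium markers against 29.2 to 126 CPM in the other HPC-1 libraries, and the 3 LT-HSC libraries labelled *Apoe*-/- carried 347, 535 and 557 CPM against 35 to 127 CPM in the other LT-HSC libraries, with 0 of the 5 defining markers at 0 in any of these 4. The list was led by *Dmbt1* in the *Apoe*-/- Ang II LT-HSC libraries and in *Apoe*-/- Ang II HPC-1 replicate 3, and by *Krt18* in the others.

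LT-HSC and HPC-1 were compared first. All 10 genes were higher in LT-HSC in the mean over the 5 conditions with replicates in both cell types, against 17.9% of the 18013 genes tested (18.7% without the doubtful libraries, again with all 10 higher). In 7 of the 10 (*Itga2b*, *Vwf*, *Pf4*, *Gp1bb*, *Itgb3*, *Clu* and *Fli1*) every one of the 15 LT-HSC libraries lay above every HPC-1 library, which held for 2.3% of genes. With all 17 LT-HSC libraries this held for 0 of 10, against 0.0611% of genes. The median log2 fold change of the 10 was 2.59, against 0.03 over all genes (2.71 against 0.02 without the doubtful libraries). *Pf4* and *Gp1bb* passed the filter on low counts only through their LT-HSC levels and not within HPC-1 alone, so that their difference is a description, and their calls carry no weight in the counts out of 10 between LT-HSC and HPC-1. Of the other 8 genes, 8 were higher with and without the doubtful libraries, their median log2 fold change was 2.01 (2.11 without them), and 5 of 8 were without overlap over the 15 libraries and 0 of 8 over all 17. In these bulk samples, a smaller share of platelet-primed cells and less RNA per cell cannot be told apart.

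**Figure D1:**
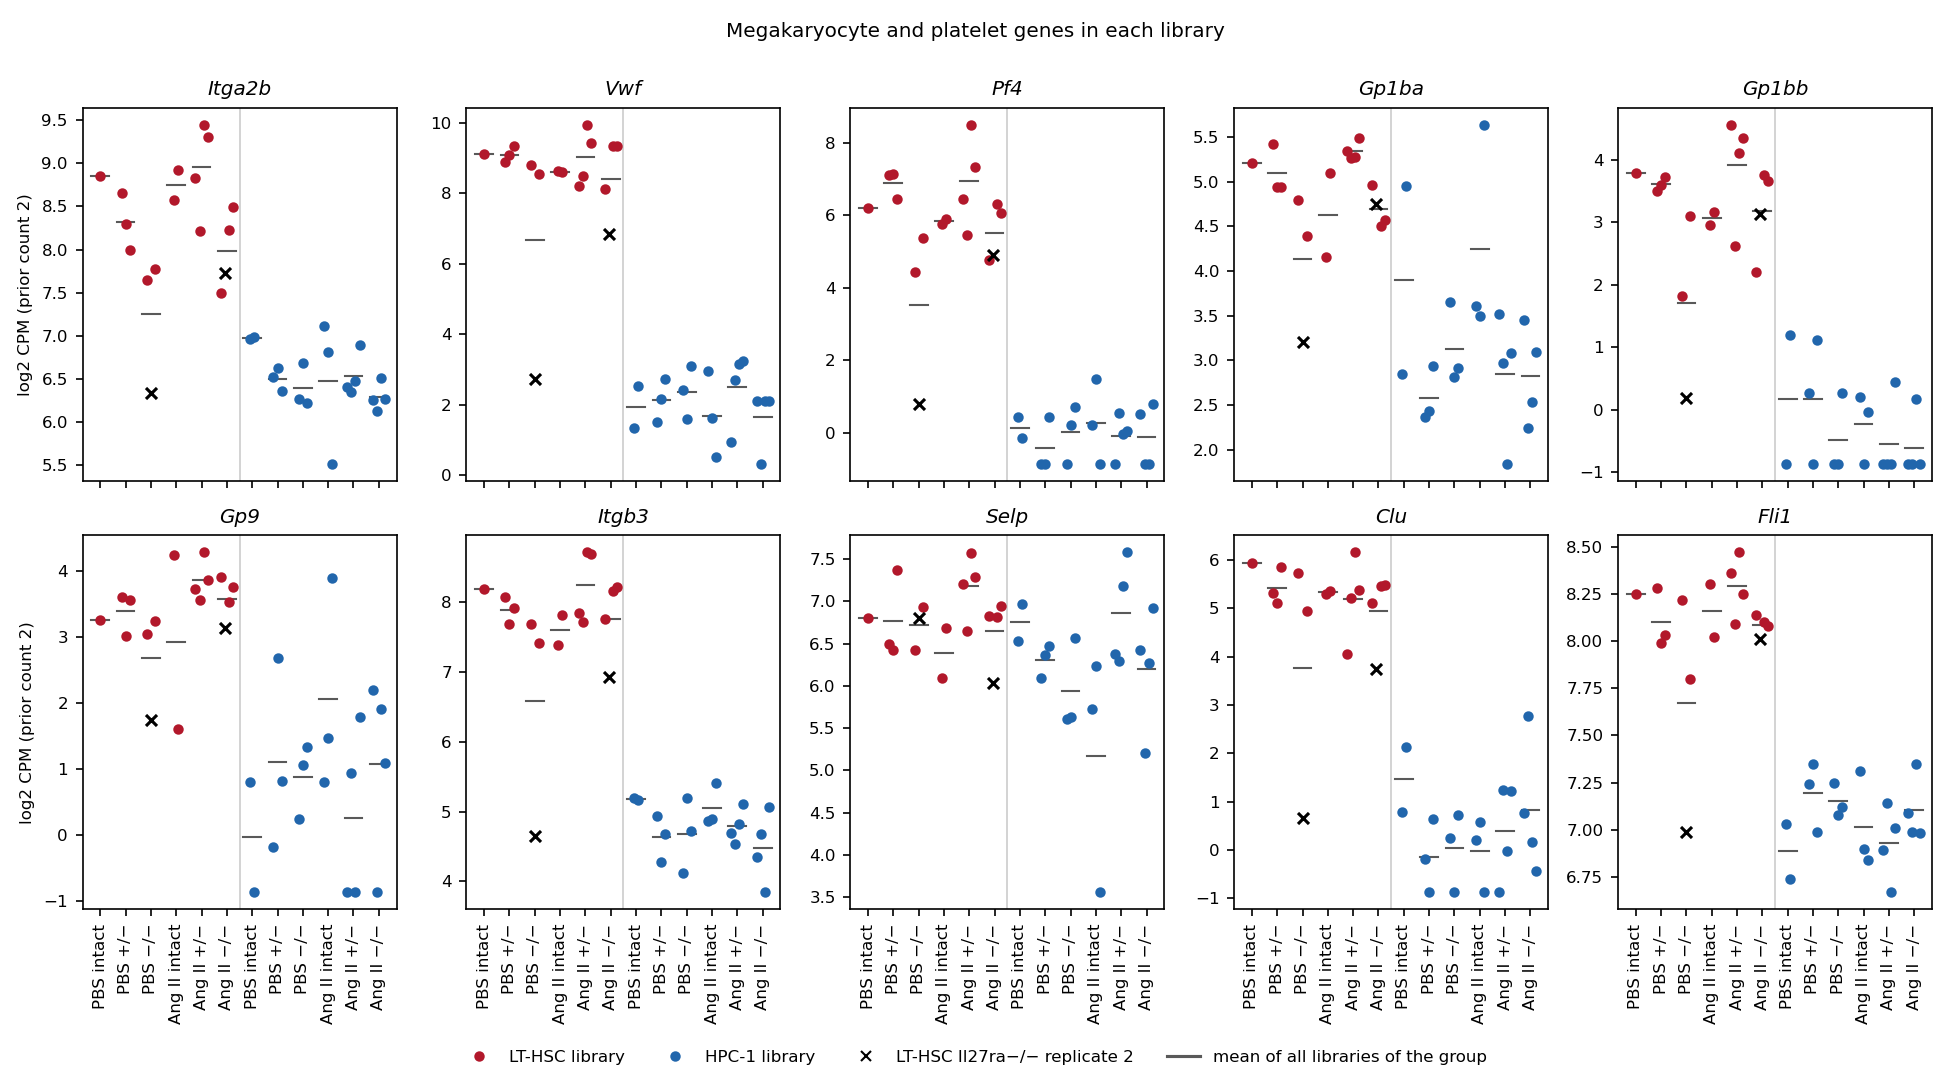
Level of each of the 10 genes as log2 CPM (prior count 2) in every library, by group of cell type, agent and genotype, with LT-HSC in red, HPC-1 in blue, crosses for the doubtful libraries and grey lines for group means over all libraries. In LT-HSC, *Vwf* lay between 279 and 986 CPM outside the doubtful libraries, and in HPC-1 it did not exceed 8.87 CPM, while the *Selp* levels of both cell types overlapped.

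*Vwf* (ENSMUSG00000001930, chr6:125546774-125686679, plus strand, mm10) encodes von Willebrand factor, which tethers platelets to injured vessels. It ranged from 279 to 986 CPM (median 470) in the 15 LT-HSC libraries and from 0.695 to 8.87 CPM (median 3.76) in HPC-1. The library labelled *Il27ra*-/- PBS LT-HSC replicate 2, at 6.05 CPM, lay among the HPC-1 libraries, and the other doubtful library, at 113 CPM, lay between both cell types. The mean was 514 ± 188 CPM (SD, n = 15), or 461 ± 233 CPM (SD, n = 17) with the doubtful libraries, against 4.3 ± 2.55 CPM (SD, n = 19) in HPC-1, a ratio of 120 (107 with them). The log2 fold change was 6.59 (SE 0.46) with an adjusted p of 7.81e-11 by the Benjamini-Hochberg method after edgeR's quasi-likelihood test, and 6.77 without the doubtful libraries.

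*Pf4* (ENSMUSG00000029373, chr5:90772435-90773383, plus strand) encodes platelet factor 4, a chemokine stored in alpha granules. LT-HSC held 21 to 362 CPM (median 73.2) in the 15 libraries, whereas HPC-1 held 0 to 2.22 CPM, with 7 of 19 libraries at 0 and 15 at or under 3 counts. The lowest LT-HSC value outside the doubtful libraries was thus above the highest HPC-1 value, and the doubtful libraries stood at 1.18 and 29.3 CPM. Summed over libraries the counts were 6126 in LT-HSC (15 libraries) and 38 in HPC-1, and the means 95.7 ± 84.5 CPM (SD, n = 15; 86.2 ± 83.5 with all 17) and 0.545 ± 0.578 CPM (SD, n = 19). The ratio of means was 176 (158 with all 17). The fitted log2 fold change, 6.75 (6.90 without the doubtful libraries), depends on the prior count, since HPC-1 lay near the floor, and no p-value is given for it.

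*Clu* (ENSMUSG00000022037, chr14:65968483-65981547, plus strand) encodes clusterin, a secreted chaperone found in platelet granules. It stood at 16 to 71 CPM (median 40.8) in the 15 LT-HSC libraries and at 0 to 6.26 CPM (median 0.637) in HPC-1, where 12 of 19 libraries were at or under 3 counts. Both groups were apart except for the doubtful libraries, at 1.03 and 12.9 CPM, the first of which lay in the HPC-1 range. The mean was 42.7 ± 13.5 CPM (SD, n = 15; 38.5 ± 17.4 with all 17) against 1.15 ± 1.54 CPM (SD, n = 19), and the log2 fold change 5.41 (SE 0.50, adjusted p = 3.21e-09 by the Benjamini-Hochberg method after edgeR's quasi-likelihood test; 5.58 without the doubtful libraries).

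*Selp* (ENSMUSG00000026580, chr1:164115264-164150026, plus strand) encodes P-selectin, which moves from the granule membrane to the surface of activated platelets. Its levels overlapped: 67.4 to 189 CPM (median 112) in the 15 LT-HSC libraries and 11.3 to 191 CPM (median 81.6) in HPC-1, with 0 of 15 LT-HSC libraries above all HPC-1 libraries. The means were 118 ± 33.6 CPM (SD, n = 15) and 84.1 ± 40.6 CPM (SD, n = 19). The log2 fold change of 0.55 (SE 0.20) had an adjusted p of 0.0349 by the Benjamini-Hochberg method after edgeR's quasi-likelihood test, and was 0.58 with an adjusted p of 0.034 by the same method without the doubtful libraries. This call was lost in 7 settings, in which the log2 fold change was 0.43 to 0.54. The adjusted p by the Benjamini-Hochberg method after edgeR's quasi-likelihood test was 0.16 in the libraries under 4000000 counts and 0.0597 with Y-linked expression as a covariate. It was 0.0588 without *Il27ra*+/- PBS LT-HSC replicate 3, 0.0537 without *Il27ra*-/- PBS LT-HSC replicate 3, 0.104 without *Apoe*-/- Ang II LT-HSC replicate 2, 0.0585 without *Il27ra*-/- PBS HPC-1 replicate 1 and 0.0538 without *Il27ra*-/- PBS HPC-1 replicate 2, in each case by the Benjamini-Hochberg method after edgeR's quasi-likelihood test. Antisense genes overlap *Selp* and *Fli1*, and whether counting used the strand is not given in the sources used here.

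*Itga2b* (ENSMUSG00000034664, chr11:102453297-102470122, minus strand) encodes CD41, the alpha chain of the fibrinogen receptor. It was present in both cell types, at 180 to 699 CPM (median 359) in the 15 LT-HSC libraries and 45 to 137 CPM (median 88.1) in HPC-1. No value of these groups overlapped, and of the doubtful libraries the one labelled PBS stood at 80.5 CPM, inside the HPC-1 range, and the one labelled Ang II at 212 CPM, above it. The mean of 376 ± 152 CPM (SD, n = 15; 349 ± 163 with all 17) was 4.09 times (3.79 with all 17) the HPC-1 mean of 92.1 ± 23.1 CPM (SD, n = 19). The log2 fold change was 1.84 (SE 0.15, adjusted p = 2.53e-10 by the Benjamini-Hochberg method after edgeR's quasi-likelihood test; 1.93 without the doubtful libraries).

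*Itgb3* (ENSMUSG00000020689, chr11:104608000-104670476, plus strand), which encodes the beta chain CD61 of the same receptor, differed more. LT-HSC levels of 167 to 417 CPM (median 228) in the 15 libraries lay above HPC-1 levels of 13.9 to 42 CPM (median 27.8) without overlap. The doubtful libraries, at 24.5 and 120 CPM, lay inside and above the HPC-1 range. The ratio of the means, 255 ± 75.8 CPM (SD, n = 15) and 27.7 ± 7.35 CPM (SD, n = 19), was 9.23 (8.45 with all 17), and the log2 fold change 3.00 (SE 0.22, adjusted p = 1.11e-10 by the Benjamini-Hochberg method after edgeR's quasi-likelihood test; 3.14 without the doubtful libraries).

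The 3 genes of the von Willebrand factor receptor differed from each other in how far LT-HSC and HPC-1 lay apart. *Gp1ba* (ENSMUSG00000050675, chr11:70639122-70642036, plus strand), the ligand-binding chain, held 17.3 to 44.3 CPM (median 30.7) in the 15 LT-HSC libraries and 3.04 to 49.4 CPM (median 7.29) in HPC-1. The groups overlapped through 2 *Apoe*-/- HPC-1 libraries, PBS replicate 2 at 30.5 CPM and Ang II replicate 3 at 49.4 CPM, and the other HPC-1 libraries did not exceed 12.1 CPM. The means were 31.7 ± 8.33 CPM (SD, n = 15) and 11 ± 11 CPM (SD, n = 19), and the log2 fold change 1.63 (SE 0.22, adjusted p = 1.38e-07 by the Benjamini-Hochberg method after edgeR's quasi-likelihood test; 1.71 without the doubtful libraries). *Gp9* (ENSMUSG00000030054, chr6:87778072-87779768, plus strand), a small chain of the complex, held 2.49 to 18.8 CPM (median 11.2) in LT-HSC and 0 to 14.3 CPM (median 1.37) in HPC-1, where the highest value again belonged to *Apoe*-/- Ang II replicate 3 and 8 of 19 libraries were at or under 3 counts. Only 3 of 15 LT-HSC libraries exceeded all HPC-1 libraries, and the log2 fold change was 2.18 (SE 0.42, adjusted p = 5.66e-05 by the Benjamini-Hochberg method after edgeR's quasi-likelihood test; 2.28 without the doubtful libraries). *Gp1bb* (ENSMUSG00000050761, chr16:18620317-18622403, minus strand), the chain linked to that of *Gp1ba* by a disulfide bond, held 2.99 to 23.1 CPM (median 11.6) in LT-HSC, while 11 of 19 HPC-1 libraries were at 0 and 16 at or under 3 counts. Its summed counts were 711 in the 15 LT-HSC libraries and 28 in HPC-1. *Gp1bb* overlaps *Sept5* on the same strand, so that its counts are uncertain.

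*Fli1* (ENSMUSG00000016087, chr9:32422204-32542861, minus strand), an ETS transcription factor required for megakaryocyte maturation, was abundant in both cell types and varied least. The 15 LT-HSC libraries held 223 to 355 CPM (median 281) and the HPC-1 libraries 101 to 163 CPM (median 131), with no overlap. The library labelled *Il27ra*-/- PBS LT-HSC replicate 2 held 127 CPM, inside the HPC-1 range, and the other doubtful library 257 CPM, inside the LT-HSC range. The means of 287 ± 33.4 CPM (SD, n = 15) and 133 ± 17.9 CPM (SD, n = 19) gave a ratio of 2.15 (2.07 with all 17), and the log2 fold change was 1.00 (SE 0.09, adjusted p = 1.51e-11 by the Benjamini-Hochberg method after edgeR's quasi-likelihood test; 1.06 without the doubtful libraries).

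Within single conditions the number of these genes higher in LT-HSC varied. Under PBS, 8 of 10 were higher in *Il27ra*+/- mice (background 3.84%, and 5.06% without the doubtful libraries, with 8 higher), *Gp9* and *Selp* being the exceptions. In *Il27ra*-/- mice under PBS, 4 of 10 were higher, *Vwf*, *Itgb3*, *Clu* and *Pf4*, against 0.877% of genes. That count rested on single libraries: it was 7 without the doubtful libraries (background 4.57%), the same without LT-HSC replicate 2 alone, 0 without LT-HSC replicate 1 or replicate 3, 0 without HPC-1 replicate 1 or replicate 2, and 1 without HPC-1 replicate 3. The share of all genes moved too: 0% were called where the count was 0, 0.262% were higher without HPC-1 replicate 3 and 4.02% without LT-HSC replicate 2 alone. DESeq2 called 7 higher (2.39% of genes) and limma-voom 0 (0%) in that condition, and a fit over the compared groups only called 0 (0%). Under Ang II, 7 of 10 were higher in *Apoe*-/- mice (5.37%, and 6.3% without the doubtful libraries, again 7), 9 in *Il27ra*+/- mice (7.59%, and 8.43%, again 9) and 8 in *Il27ra*-/- mice (7.04%, and 8.34% with 9 higher). Leaving out *Pf4* and *Gp1bb*, these counts were 6, 3, 5, 7 and 6 of 8 in the order given, and 6, 5, 5, 7 and 7 of 8 without the doubtful libraries. In *Apoe*-/- mice under Ang II, *Gp1ba*, *Gp9* and *Selp* were the exceptions, and the *Gp1ba* log2 fold change was 0.11 there against 2.46 in *Il27ra*+/- mice under Ang II. The *Apoe*-/- Ang II HPC-1 libraries held 11.7, 10.8 and 49.4 CPM *Gp1ba*. The last was replicate 3, the library with intestinal epithelium markers, and its part was not tested. PBS LT-HSC labelled *Apoe*-/- were 1 library, so that no test was made there, and its *Il27ra* level lay within the *Il27ra*-/- range. Its levels of 554 CPM *Vwf*, 73.2 CPM *Pf4* and 290 CPM *Itgb3* lay above both PBS HPC-1 libraries of the same label, at 1.97 and 5.25 CPM *Vwf* and 36.2 and 35.4 CPM *Itgb3*. Scaling mattered in *Il27ra*+/- mice under PBS: with DESeq2's size factors the median log2 fold change of all genes was higher by 0.12, and 64.2% of its calls were higher in LT-HSC against 50.0% with TMM, or 63.9% with upper-quartile factors.

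Levels of different genes can be compared only per length. In the 15 LT-HSC libraries the order in CPM per kb of exon was *Pf4* at 133 ± 117, *Fli1* at 82.3 ± 9.59, *Itga2b* at 69 ± 27.8, *Itgb3* at 43.3 ± 12.8, *Vwf* at 32 ± 11.7, *Selp* at 26.8 ± 7.61, *Gp9* at 13 ± 4.73, *Clu* at 12.4 ± 3.91, *Gp1ba* at 11.7 ± 3.06 and *Gp1bb* at 5.41 ± 2.69 CPM per kb (SD, n = 15). Of neighbours in this order, *Selp* and *Gp9*, and *Gp1ba* and *Gp1bb*, differed by more than the sum of their SDs, whereas the other neighbours did not. *Itgb3* nevertheless exceeded *Vwf* per kb in 15 of 15 libraries, whereas *Pf4* exceeded *Fli1* in 10 of 15. HPC-1 held the order *Fli1* at 38.2 ± 5.14, *Selp* at 19.1 ± 9.21, *Itga2b* at 16.9 ± 4.23 and *Itgb3* at 4.69 ± 1.25 CPM per kb (SD, n = 19), with *Gp1ba* at 4.03, *Gp9* at 2.6 and the other 4 under 1 CPM per kb. There, *Fli1* and *Selp*, and *Itga2b* and *Itgb3*, differed by more than the sum of their SDs.

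The agent was compared next within LT-HSC, which asks whether Ang II moves these genes. In *Il27ra*+/- mice, *Vwf* stood at 470, 541 and 645 CPM under PBS and at 298, 358, 986 and 689 CPM under Ang II. *Pf4* stood at 137, 139 and 87.4 CPM under PBS and at 86.7, 43, 362 and 160 CPM under Ang II. Under Ang II, replicates 3 and 4 were the high ones for both genes, replicates 1 and 2 lay below every *Vwf* value under PBS, and the groups overlapped. Replicates 3 and 4 were also the libraries over 4000000 counts and those with *Xist*. edgeR's quasi-likelihood test called 0 of 10 (0% of 16365 genes), with 0 at an unadjusted p under 0.05 (4.93% of genes), and DESeq2 and limma-voom called 0 each (0% of genes by either). In this comparison 0 of 10 were without overlap between the groups, against 4.95% of genes. The median log2 fold change of the 10 was 0.39, against −0.04 over all genes. In the libraries under 4000000 counts alone, 2 in each group, of which PBS replicate 2 carried *Xist*, the median was 0.05 and 4 of 10 lay below 0: *Pf4* at −1.13 (unadjusted p = 0.00233, edgeR's quasi-likelihood test, the only 1 under 0.05, against 1.89% of genes), *Vwf* at −0.66, *Clu* at −0.49 and *Itgb3* at −0.13. With Y-linked expression as a covariate *Clu* alone lay below 0, with *Pf4* at 0.27, *Vwf* at 0.07 and a median of 0.34.

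In *Il27ra*-/- LT-HSC, *Vwf* stood at 445, 6.05 and 372 CPM under PBS and at 279, 113, 647 and 653 CPM under Ang II, in the order of the replicates. *Itgb3* stood at 207, 24.5 and 170 CPM under PBS and at 215, 120, 286 and 297 CPM under Ang II. Replicate 2 was the lowest of its group in each case, and without both of these doubtful libraries the *Itgb3* values no longer overlapped. The test by edgeR called 0 of 10 (0% of genes), with 0 at an unadjusted p under 0.05 (0.92% of genes), and DESeq2 and limma-voom called 0 each (0.00611 and 0% of genes). With all libraries 0 of 10 were free of overlap, against 2.21% of genes, and without the doubtful libraries *Gp9* and *Itgb3* were higher under Ang II without overlap, against 14.6%. The median log2 fold change of the 10 was 0.63 (0.37 without the doubtful libraries), against −0.01 over all genes. With Y-linked expression as a covariate all 10 were above 0, with a median of 0.54. In that fit *Gp1bb* (1.31, unadjusted p = 0.047, edgeR's quasi-likelihood test) was the only 1 under 0.05, against 0.94% of genes. Under 4000000 counts there were 1 PBS library and 2 Ang II libraries, 1 of them doubtful, and 5 of 10 fold changes lay below 0 there, *Vwf* at −1.18, *Clu* at −1.15, *Itgb3* at −0.30, *Fli1* at −0.14 and *Itga2b* at −0.02. With no filter on low counts, edgeR's quasi-likelihood test, adjusted by the Benjamini-Hochberg method, called *Pf4* (1.26, SE 0.24, adjusted p = 5.9e-05) and *Itgb3* (0.78, SE 0.21, adjusted p = 0.0495), with smaller SEs than after filtering, among 104 genes called (0.351%). In LT-HSC labelled *Apoe*-/-, *Vwf* was 554 CPM in the PBS library and 393 and 386 CPM under Ang II, *Pf4* 73.2 against 53.9 and 58.7 CPM, and *Itga2b* 462 against 378 and 485 CPM, with no test.

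Genotype was compared within LT-HSC under each agent. Under PBS, *Pf4* stood at 137, 139 and 87.4 CPM in *Il27ra*+/- and at 21, 1.18 and 40.9 CPM in *Il27ra*-/- libraries. *Itga2b* stood at 405, 315 and 254 CPM in *Il27ra*+/- and at 200, 80.5 and 219 CPM in *Il27ra*-/-. *Gp1ba* stood at 42.2, 30.1 and 30.2 CPM in *Il27ra*+/- and at 27.4, 8.7 and 20.5 CPM in *Il27ra*-/-. For these genes every *Il27ra*-/- library lay below every *Il27ra*+/- library, and the lowest value was that of the library labelled *Il27ra*-/- replicate 2. *Vwf* (470, 541 and 645 CPM against 445, 6.05 and 372 CPM) and *Gp1bb* (10.7, 11.6 and 12.6 CPM against 2.99, 0.59 and 8.02 CPM) were likewise apart. These 5 of 10 were without overlap against 7.66% of genes, and the same 5 without the doubtful library, against 15.7%.

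None of these differences under PBS passed the test: edgeR called 0 of 10 (0% of 16365 genes), and DESeq2 and limma-voom called 0 each (0.00611 and 0% of genes). At an unadjusted p under 0.05, 4 of 10 were lower in *Il27ra*-/-, against 3.99% of genes in either direction. They were *Pf4* (log2 fold change −2.54, SE 0.98, unadjusted p = 0.0248), *Gp1bb* (−1.57, unadjusted p = 0.0257), *Itga2b* (−0.97, unadjusted p = 0.0238) and *Gp1ba* (−0.88, unadjusted p = 0.0151), all by edgeR's quasi-likelihood test. Without the doubtful library *Pf4* alone was left, at −1.94 (unadjusted p = 0.0482, edgeR's quasi-likelihood test). All 10 log2 fold changes were negative, with a median of −0.86 (−0.39 without the doubtful library) against −0.02 over all genes. With no filter on low counts, edgeR's quasi-likelihood test, adjusted by the Benjamini-Hochberg method, called 4 genes: *Pf4* at −2.51 (adjusted p = 6.19e-20), *Vwf* at −1.01 (adjusted p = 0.00049), *Itga2b* at −0.95 (adjusted p = 0.00211) and *Itgb3* at −0.82 (adjusted p = 0.0275), among 193 genes called (0.651%). The doubtful library was part of that fit. Its SEs were 0.25, 0.21, 0.21 and 0.22 in the same order, against 0.98 for *Pf4* after filtering.

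Other values moved with genotype under PBS. The 8 granulocyte markers summed to 29.1, 29.2 and 114 CPM in *Il27ra*+/- and 33.4, 311 and 1262 CPM in *Il27ra*-/- libraries, with *Ngp* the most abundant in *Il27ra*-/- replicate 3 at 388 CPM, 2 of the 4 defining markers at 0 in *Il27ra*-/- replicate 1 and 0 in replicates 2 and 3. The 9 erythroid markers summed to 42.2, 83.4 and 839 CPM in *Il27ra*+/- and 20.1, 67.5 and 3076 CPM in *Il27ra*-/- libraries, with *Hba-a2* at 1315 CPM in the last. Depth differed too, and with the libraries under 4000000 counts alone, 1 *Il27ra*-/- and 2 *Il27ra*+/-, 8 of 10 log2 fold changes were negative, *Pf4* at −2.72, *Itga2b* at −0.85 and *Vwf* at −0.19 among them, with *Clu* at 0.52 and *Fli1* at 0.07 above 0 and a median of −0.25. With Y-linked expression as a covariate, over all libraries, all 10 were negative with a median of −0.82, and *Pf4* (−2.61, unadjusted p = 0.0184), *Gp1bb* (−1.60, unadjusted p = 0.0231), *Itga2b* (−0.97, unadjusted p = 0.0279) and *Gp1ba* (−0.91, unadjusted p = 0.00864) were under 0.05 by edgeR's quasi-likelihood test, against 4.01% of genes. The part of other cell types in these differences was not tested.

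Under Ang II, the same genotypes were compared in separate libraries. *Pf4* stood at 86.7, 43, 362 and 160 CPM in *Il27ra*+/- and at 26.6, 29.3, 79.4 and 65.6 CPM in *Il27ra*-/-. *Itga2b* stood at 456, 298, 699 and 635 CPM in *Il27ra*+/- and at 180, 212, 300 and 359 CPM in *Il27ra*-/-. *Gp1ba* stood at 40, 38.1, 38.3 and 44.3 CPM in *Il27ra*+/- and at 30.7, 26.3, 22.3 and 23.2 CPM in *Il27ra*-/-. *Gp1ba* was apart between the genotypes, whereas *Pf4* and *Itga2b* overlapped, the lowest *Il27ra*+/- value of each, in replicate 2, lying within the *Il27ra*-/- range. *Gp1ba* was thus 1 of 10 without overlap, against 1.9% of genes (4.75% without the doubtful library). *Vwf* overlapped widely, at 298, 358, 986 and 689 CPM in *Il27ra*+/- and 279, 113, 647 and 653 CPM in *Il27ra*-/-. edgeR called 0 of 10 (0% of genes), and DESeq2 and limma-voom called 0 each (0.0122 and 0% of genes). At an unadjusted p under 0.05, 3 of 10 were lower in *Il27ra*-/- by edgeR's quasi-likelihood test, against 2.60% of genes in either direction: *Itga2b* (log2 fold change −0.99, unadjusted p = 0.00992), *Gp1ba* (−0.65, unadjusted p = 0.0325) and *Selp* (−0.53, unadjusted p = 0.0436). Without the doubtful library these were *Itga2b* (−0.91, unadjusted p = 0.011) and *Gp1ba* (−0.68, unadjusted p = 0.0103), by the same edgeR test. The log2 fold change of *Pf4* was −1.69 (SE 0.81, unadjusted p = 0.0603, edgeR's quasi-likelihood test), and −1.52 (unadjusted p = 0.0517, the same edgeR test) without the doubtful library. All 10 fold changes were negative, with a median of −0.50 (−0.31 without the doubtful library) against 0.01 over all genes. All 10 were negative too in the libraries under 4000000 counts, 2 in each group with the doubtful library among them (median −0.43), and with Y-linked expression as a covariate (median −0.51). In the former, *Pf4* (−1.17, unadjusted p = 0.00231) and *Itga2b* (−0.91, unadjusted p = 0.00158) were under 0.05 by edgeR's quasi-likelihood test, against 2.29% of genes. With the covariate *Selp* (unadjusted p = 0.0219), *Itga2b* (unadjusted p = 0.0123) and *Gp1ba* (unadjusted p = 0.0196) were under 0.05 by the same edgeR test, against 2.00% of genes. With no filter, *Pf4* (−1.69, adjusted p = 5.69e-13) and *Itga2b* (−0.99, adjusted p = 2.42e-05) were called by the Benjamini-Hochberg method after edgeR's quasi-likelihood test, among 249 genes called (0.84%). That fit held the doubtful library, and its SE for *Pf4* was 0.21, against 0.81 after filtering. Granulocyte markers summed to 51.3, 95.3, 36.2 and 44.2 CPM in *Il27ra*+/- and to 54.7, 40.6 and 58.5 CPM in the *Il27ra*-/- libraries other than the doubtful one.

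**Figure D2:**
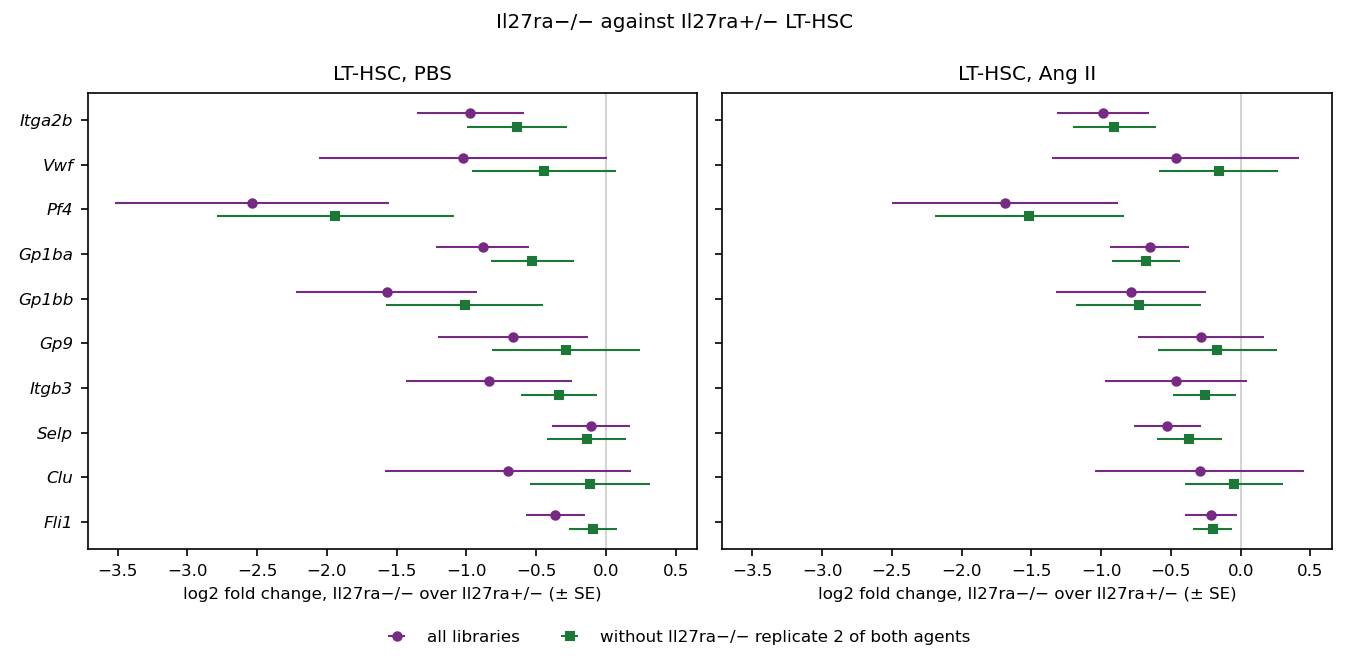
Log2 fold change of each gene between *Il27ra*-/- and *Il27ra*+/- LT-HSC under PBS and under Ang II, with bars of 1 SE from edgeR, over all libraries and without the doubtful libraries. All 10 points over all libraries lay below 0 under either agent, with medians of −0.86 and −0.50, and 0 of 10 passed the test.

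Against *Apoe*-/- LT-HSC, which could be compared under Ang II only, *Il27ra*+/- libraries stood at 148, 100, 189 and 156 CPM *Selp* against 67.4 and 103 CPM, and at 40, 38.1, 38.3 and 44.3 CPM *Gp1ba* against 17.3 and 33.8 CPM. The *Gp1ba* values did not overlap, those of *Selp* did through *Il27ra*+/- replicate 2, and neither difference was called. edgeR called 0 of 10 (0.831% of genes, 2.2% without the doubtful libraries), DESeq2 and limma-voom called 0 each (2.66 and 0.544% of genes), and *Selp* was the only 1 at an unadjusted p under 0.05 by edgeR's quasi-likelihood test (log2 fold change 0.81, unadjusted p = 0.0169), against 15.66% of genes. *Gp1ba* was 1 of 10 without overlap, against 22.6% of genes. All 10 log2 fold changes were above 0, with a median of 0.63 against 0.09 over all genes. In the libraries under 4000000 counts, 2 in each group and none with *Xist*, the median was 0.19, *Vwf* (−0.23), *Clu* (−0.56) and *Itga2b* (−0.19) lay below 0 and 0 of 10 were at an unadjusted p under 0.05 by edgeR's quasi-likelihood test (5.97% of genes). With Y-linked expression as a covariate *Clu* alone lay below 0, and *Gp1ba* (0.85, unadjusted p = 0.0281) and *Selp* (0.60, unadjusted p = 0.0407) were under 0.05 by edgeR's quasi-likelihood test, against 14.18% of genes. With no filter on low counts *Pf4* (1.57, SE 0.27, adjusted p = 4.86e-06) was called by the Benjamini-Hochberg method after edgeR's quasi-likelihood test, among 496 genes called (1.67%). In the comparison of *Il27ra*-/- with *Apoe*-/-, *Itga2b* stood at 180, 212, 300 and 359 CPM in *Il27ra*-/- against 378 and 485 CPM, without overlap, as held for 23.7% of genes. Without the doubtful library *Selp* was apart too, on the higher side, against 33.7% of genes. edgeR called 0 of 10 (1.69% of genes, 4.4% without the doubtful libraries), with 0 at an unadjusted p under 0.05 (17.70% of genes), and DESeq2 and limma-voom called 0 each (4.83 and 0.752% of genes). The 10 fold changes had a median of 0.07 against 0.14 over all genes (0.17 against 0.10 without the doubtful libraries). In the libraries under 4000000 counts, 2 in each group, none with *Xist* and 1 of them doubtful, the median was −0.24 and 7 of 10 lay below 0, with *Itga2b* (−1.09, unadjusted p = 0.000299), *Pf4* (−0.96, unadjusted p = 0.00947) and *Vwf* (−0.95, unadjusted p = 0.0158) under 0.05 by edgeR's quasi-likelihood test, against 9.56% of genes, and 0 of 10 called. With Y-linked expression as a covariate 5 of 10 lay below 0, and *Itga2b* was at −0.85 (unadjusted p = 0.0662, edgeR's quasi-likelihood test). Without the doubtful libraries, edgeR called 0 of 10 in each of the 6 comparisons within LT-HSC, with 1 and 0 at an unadjusted p under 0.05 for Ang II in *Il27ra*+/- and *Il27ra*-/-, 1 for genotype under PBS, and 2, 3 and 0 for *Il27ra*-/- against *Il27ra*+/-, *Il27ra*+/- against *Apoe*-/- and *Il27ra*-/- against *Apoe*-/- under Ang II. Of all genes, 5.39, 1.06, 2.09, 2.49, 18.31 and 20.91% were at an unadjusted p under 0.05 in these 6, in the same order. The LT-HSC libraries labelled *Apoe*-/- were those that carried the intestinal epithelium markers, which cannot be told apart from genotype in these comparisons. *Xist* was low in them (46.2 and 69.1 CPM under Ang II), as in replicates 1 and 2 of *Il27ra*+/- (18.8 and 12.7 CPM) and of *Il27ra*-/- (12.9 and 7.75 CPM) under Ang II.

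Whether these differences were larger in LT-HSC than in HPC-1 was tested with interaction terms for 6 of them, the last 2 added after the other results were seen. For the response to Ang II, edgeR's quasi-likelihood test called 0 of 10 in *Il27ra*+/- mice (0% of 18013 genes) and 0 of 10 in *Il27ra*-/- mice (0%, and 0.00557% without the doubtful libraries), with 0 at an unadjusted p under 0.05 in either (3.03 and 2.35% of genes), and DESeq2 and limma-voom called 0 in each (0% of genes). For the difference between *Il27ra*-/- and *Il27ra*+/- under Ang II it called 0 of 10 (0%), with 0 at an unadjusted p under 0.05 (2.94% of genes), and DESeq2 and limma-voom 0 each (0% of genes). For the difference between *Il27ra*-/- and *Apoe*-/- under Ang II it called 0 of 10 (0.05%, and 0.0836% without the doubtful libraries), with 1 at an unadjusted p under 0.05, *Gp1ba* (log2 difference 1.75, unadjusted p = 0.0178, edgeR's quasi-likelihood test), against 9.86% of genes, and DESeq2 and limma-voom 0 each (0.366 and 0.0167% of genes). Without the doubtful libraries *Gp1ba* (1.73, unadjusted p = 0.0165) and *Itgb3* (0.97, unadjusted p = 0.0197) were under 0.05 by that edgeR test, against 10.23% of genes. The median log2 difference of the 10 was 0.16, 0.75, −0.49 and 0.50 in these 4 tests, and 0.15, 0.41, −0.50 and 0.74 without the doubtful libraries. Since *Pf4* and *Gp1bb* were near the floor in HPC-1, their terms carry no weight, and over the other 8 genes the medians were 0.05, 0.55, −0.49 and 0.12 (0.04, 0.22, −0.50 and 0.29 without the doubtful libraries). These 8 include *Clu* and *Gp9*, at or under 3 counts in 12 and 8 of 19 HPC-1 libraries, so that their terms are uncertain too. *Clu* gave the lowest term for Ang II in both genotypes (−1.165 and −1.206) and for *Il27ra*-/- against *Apoe*-/- (−1.89). With no filter on low counts, *Vwf* was called in the second (1.40, SE 0.35, adjusted p = 0.0257) by the Benjamini-Hochberg method after edgeR's quasi-likelihood test, among 100 genes called (0.326%). For *Il27ra*-/- against *Il27ra*+/- under PBS, added later, edgeR's quasi-likelihood test called 0 of 10 (0%), with *Gp1ba* at an unadjusted p under 0.05 (log2 difference −1.47, unadjusted p = 0.0447, against 3.51% of genes), DESeq2 and limma-voom called 0 each (2 and 0 of all 18013 genes), and the median over the 8 genes was −0.90. Without the doubtful libraries 0 were under 0.05 by the same edgeR test (2.03% of genes), and that median was −0.36. For *Il27ra*+/- against *Apoe*-/- under Ang II, added later too, it called 0 of 10 (0.117% of genes, 0.1% without the doubtful libraries), with *Gp1ba* at an unadjusted p under 0.05 (2.34, unadjusted p = 0.00222, edgeR's quasi-likelihood test, against 10.14% of genes), and DESeq2 and limma-voom called 0 each (58 and 2 of all 18013 genes). Without the doubtful libraries *Gp1ba* (2.35, unadjusted p = 0.00141) and *Itgb3* (0.96, unadjusted p = 0.0181) were under 0.05 by the same edgeR test, against 10.75% of genes, and the median over the 8 genes was 0.29 (0.30 without them). Both *Gp1ba* terms against *Apoe*-/- use *Apoe*-/- Ang II HPC-1 levels of 11.7, 10.8 and 49.4 CPM. The last is replicate 3, the library with intestinal epithelium markers, and its part was not tested.

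Within HPC-1, 8 of the 10 genes passed the filter on low counts, *Pf4* and *Gp1bb* being too low, and neither agent nor genotype gave a call. Across agents, edgeR's quasi-likelihood test called 0 of 8 in *Apoe*-/- (0% of 13199 genes), 0 in *Il27ra*+/- (0%) and 0 in *Il27ra*-/- (0%), with 0 at an unadjusted p under 0.05 in each (3.18, 3.93 and 1.85% of genes). Under Ang II it called 0 of 8 between *Il27ra*-/- and *Apoe*-/- (0%), 0 between *Il27ra*+/- and *Apoe*-/- (0%) and 0 between *Il27ra*-/- and *Il27ra*+/- (0%), with 1, 2 and 0 at an unadjusted p under 0.05 (5.01, 7.39 and 2.84% of genes). Under PBS it called 0 of 8 between *Il27ra*-/- and *Apoe*-/- (0.0152%), 0 between *Il27ra*+/- and *Apoe*-/- (0%) and 0 between *Il27ra*-/- and *Il27ra*+/- (0%), with 0, 1 and 0 at an unadjusted p under 0.05 (6.55, 4.78 and 1.14% of genes). DESeq2 and limma-voom called 0 in all of these 9 comparisons. Of all genes they called at most 0.189 and 0.0303%, between *Il27ra*-/- and *Apoe*-/- under PBS. The genes at an unadjusted p under 0.05 were *Gp1ba*, in 3 of them, and *Selp*. *Gp1ba* stood in *Apoe*-/- HPC-1 at 6.68 and 30.5 CPM under PBS and 11.7, 10.8 and 49.4 CPM under Ang II, whereas the other groups ranged from 3.04 to 12.1 CPM. Its log2 fold changes against *Apoe*-/- were −1.74 in *Il27ra*+/- under PBS (unadjusted p = 0.0173), −1.74 in *Il27ra*+/- under Ang II (unadjusted p = 0.00586) and −1.80 in *Il27ra*-/- under Ang II (unadjusted p = 0.00423), all by edgeR's quasi-likelihood test. Under Ang II, *Selp* levels were 52.3, 74.5 and 11.3 CPM in *Apoe*-/- HPC-1 against 82.7, 77.5, 144 and 191 CPM in *Il27ra*+/- HPC-1, the highest *Apoe*-/- value lying below the lowest *Il27ra*+/- value (log2 fold change 1.40, unadjusted p = 0.0167, edgeR's quasi-likelihood test). The low *Selp* and the high *Gp1ba* value came from *Apoe*-/- Ang II replicate 3, the library with intestinal epithelium markers, and their part was not tested.

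Other genes of the platelet lineage are given from 4 of 5 lists, the fifth being left out, so that they do not stand for all genes of the lineage, in the same comparison of LT-HSC with HPC-1, in which 17.9% of all genes were higher and 18.4% lower in LT-HSC (18.7% and 19.6% without the doubtful libraries). In the list left out, 5 of 9 genes were higher and 2 lower, with a median log2 fold change of 0.266 (5, 3 and 0.285 without the doubtful libraries). Of 12 megakaryocyte transcription factors, 9 were higher in LT-HSC and 0 lower, with 9 and 0 without the doubtful libraries, and the median log2 fold change was 0.68 (0.75 without them). *Meis1*, a homeobox factor, stood at 621 ± 67.8 CPM (SD, n = 15) in LT-HSC and 242 ± 35 CPM (SD, n = 19) in HPC-1 (log2 fold change 1.25, adjusted p = 6.43e-12 by the Benjamini-Hochberg method after edgeR's quasi-likelihood test; 1.35 without the doubtful libraries). *Gata2* stood at 452 ± 70.5 and 162 ± 38.2 CPM (SD, n = 15 and n = 19), and *Zfpm1*, whose product FOG-1 binds GATA factors, at 627 ± 141 and 143 ± 43.6 CPM (SD, n = 15 and n = 19). *Runx1* was not called, at 0.03 (adjusted p = 0.894 by the Benjamini-Hochberg method after edgeR's quasi-likelihood test; 0.06 without the doubtful libraries).

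Of 15 platelet surface receptors 13 were tested, *Gp6* and *Cd226* being too low, and 12 were higher and 0 lower in LT-HSC, with a median log2 fold change of 1.67 (the same counts and 1.77 without the doubtful libraries). *Clec1b* and *P2ry12* passed the filter on low counts only through their LT-HSC levels, and of the other 11 genes 10 were higher and 0 lower, with a median of 1.64 (10, 0 and 1.69 without the doubtful libraries). The tetraspanin *Cd9* stood at 63 ± 17.4 CPM (SD, n = 15) and 16.7 ± 4.18 CPM (SD, n = 19), and the thrombin receptor *F2r* at 143 ± 33.3 and 41.3 ± 11.9 CPM (SD, n = 15 and n = 19). Of 17 genes of granule contents and assembly 16 were tested, *Sparc* being too low, and 10 were higher and 2 lower (10 and 3 without the doubtful libraries), with a median of 1.76 (1.80 without them). Leaving out *Ppbp* and *Pdgfb*, which passed only through LT-HSC, and *Pdgfa*, which passed in neither cell type alone, 8 of 13 were higher and 2 lower, with a median of 1.22 (8, 3 and 1.34 without the doubtful libraries). *Mmrn1*, which encodes the factor V carrier multimerin 1, stood at 533 ± 85.9 and 19.4 ± 14.1 CPM (SD, n = 15 and n = 19; log2 fold change 4.70, adjusted p = 5.07e-11 by the Benjamini-Hochberg method after edgeR's quasi-likelihood test; 4.85 without the doubtful libraries). *F13a1*, the A chain of coagulation factor XIII, which monocyte progenitors also transcribe, went the other way, at 2.94 ± 6.42 CPM in LT-HSC and 216 ± 124 CPM in HPC-1 (SD, n = 15 and n = 19; −5.92, adjusted p = 1.19e-05 by the Benjamini-Hochberg method after edgeR's quasi-likelihood test; −7.24 without the doubtful libraries). Of 16 genes of the platelet cytoskeleton and signalling 15 were tested, *Myl9* being too low, and 12 were higher and 2 lower, with a median of 1.29 (the same counts and 1.34 without the doubtful libraries). *Cavin2* and *Tubb1* passed only through LT-HSC, and of the other 13 genes 10 were higher and 2 lower, with a median of 0.73 (10, 2 and 0.63 without the doubtful libraries). *Cavin2* stood at 155 ± 42.8 and 0.794 ± 0.817 CPM (SD, n = 15 and n = 19) and the myosin kinase gene *Mylk* at 55.4 ± 11.2 and 8.22 ± 2.76 CPM (SD, n = 15 and n = 19), while the lower ones were *Rasgrp2*, at 119 ± 24.7 and 159 ± 31.2 CPM, and *Flna*, at 567 ± 65.6 and 770 ± 55.7 CPM (SD, n = 15 and n = 19).

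**Figure D3:**
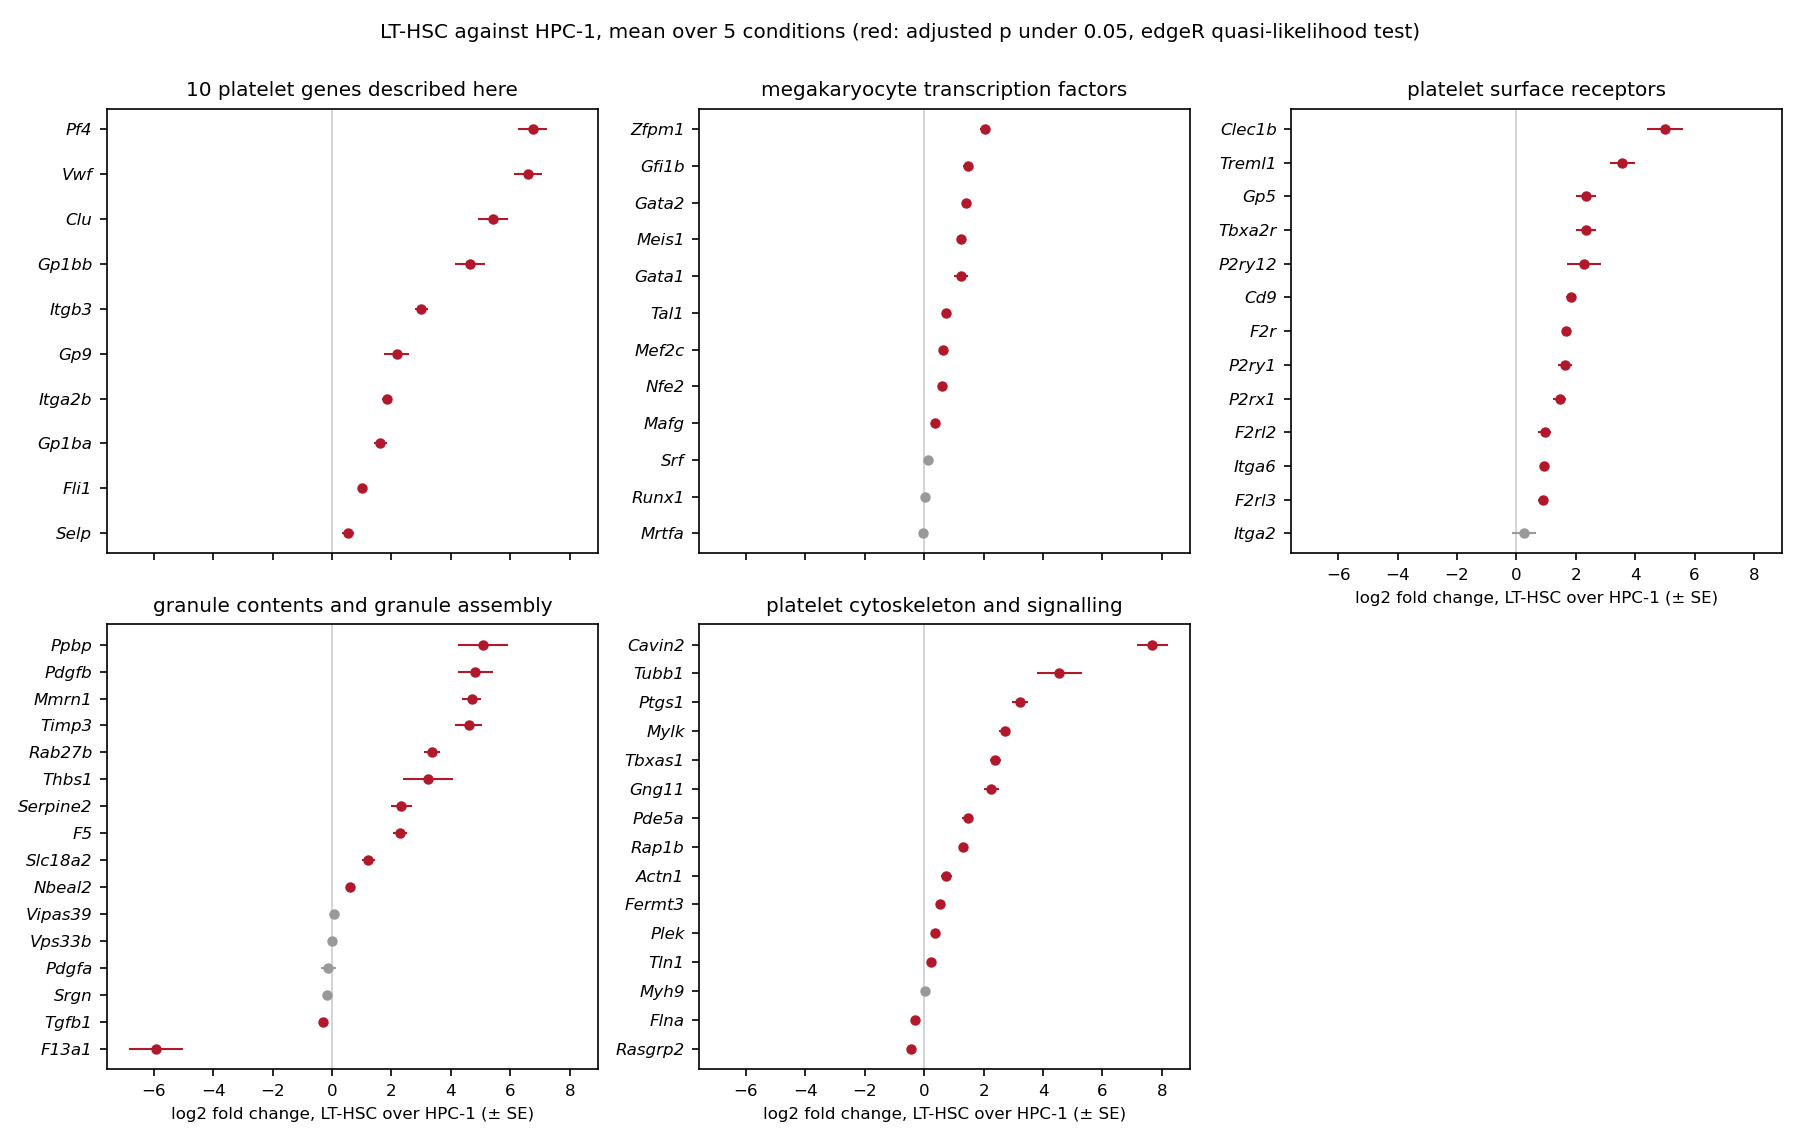
Log2 fold change of LT-HSC over HPC-1, as the mean over 5 conditions with bars of 1 SE from edgeR, for the 10 platelet genes and the genes of the 4 lists, in red where the adjusted p was under 0.05. Most points lay to the right of 0, with *Cavin2*, *Pf4* and *Vwf* far to the right and *F13a1* far to the left.

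Markers of mature megakaryocytes and platelets were examined as a list of 10. The list, which shares *Itgb3* and *Pf4* with the genes above, summed to 438 ± 169 CPM (SD, n = 15) in LT-HSC and 53.5 ± 12 CPM (SD, n = 19) in HPC-1, with *Itgb3* the most abundant. Its 6 defining genes summed to 43.9 ± 18 CPM (SD, n = 15) and 4.58 ± 2.6 CPM (SD, n = 19). *Ppbp*, which encodes the platelet basic protein, stood at 2.91 ± 2.61 CPM (SD, n = 15) and was at 0 in 2 of 15 LT-HSC and 17 of 19 HPC-1 libraries, and *Tubb1*, the platelet tubulin gene, at 3.02 ± 3.11 CPM (SD, n = 15). *Gp6*, the collagen receptor gene, was at 0 in 12 of 15 LT-HSC and 18 of 19 HPC-1 libraries. *Gp5* and *Treml1* were at 0 in none of the 15 LT-HSC libraries, with *Gp5* at 18.5 ± 8.03 and *Treml1* at 10.7 ± 6.1 CPM (SD, n = 15). *Vwf* and *Selp* are also transcribed by endothelium, whose 12 markers summed to 487 ± 47.2 CPM in LT-HSC and 279 ± 25.5 CPM in HPC-1 (SD, n = 15 and n = 19). The most abundant were *Tie1* and *Pecam1*, which stem cells transcribe too, and the 5 defining markers summed to 13.3 ± 5.95 CPM (SD, n = 15), against 4.88 ± 1.77 CPM in HPC-1 (SD, n = 19). Of these 5, *Mmrn2* was at 0 in 8 of 15 LT-HSC libraries, *Cdh5* in 4, *Plvap* in 3, *Sox18* in 1 and *Cldn5* in 0. *Cldn5* (5.24 against 0.053 CPM) and *Sox18* (4.92 against 0.131 CPM) had higher means in LT-HSC, and *Plvap* a lower mean (1.3 against 4.24 CPM). The part of endothelium in the *Vwf* and *Selp* levels was not tested. Defining markers of B cells and T cells summed to means of 0.697 and 0.38 CPM in the same 15 libraries.

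Across the LT-HSC libraries several of these genes varied together, over points that share library, depth and group. Over all 17 libraries, Pearson's r of log2 CPM was 0.910 for *Pf4* and *Gp1bb*, 0.893 for *Itga2b* and *Pf4*, 0.964 for *Vwf* and *Itgb3* and 0.967 for *Vwf* and *Clu*. Over the 15 libraries it was 0.809, 0.784, 0.761 and 0.720 for the same pairs, and over the 19 HPC-1 libraries −0.05, 0.30, −0.20 and 0.12. *Pf4*, *Gp1bb* and *Clu* were at or under 3 counts in 15, 16 and 12 of these 19 libraries, *Vwf* in 3, and *Itga2b* and *Itgb3* in 0. The pair *Vwf* and *Gp1ba* depended on the doubtful libraries, with r at 0.720 over 17 and 0.098 over 15. The pairs above were among the highest, and other pairs were near 0 over the 15 libraries. Examples were *Gp1bb* and *Clu* (0.639 over 17 and −0.10 over 15), *Gp1ba* and *Gp9* (0.400 and −0.06) and *Gp9* and *Clu* (0.541 and 0.03). Depth moved with some genes more than with others: r with the log10 total count was 0.599 for *Selp* and 0.550 for *Vwf*, 0.054 for *Itga2b* and −0.30 for *Fli1* over the 15 libraries. Among the 16365 genes tested in LT-HSC, the 2 most like *Pf4* over the 17 libraries were *Ache* (r = 0.967, and 0.937 over 15) and *Rab27b* (0.961 and 0.939), and those most like *Itga2b* were *Mfsd2b* (0.942 and 0.927) and *Robo3* (0.937 and 0.902). *Vwf* was nearest to *Cavin2* (0.973 and 0.726) and *Ptgs1* (0.971 and 0.635), and *Itgb3* to *Vwf* (0.964 and 0.761) and *Prkcq* (0.954 and 0.787). *Clu* was nearest to *Mtss1l* (0.972 and 0.784) and *Vwf*, and *Gp1bb* to *Pf4* and *Ache* (0.883 and 0.748 for the latter). *Gp9* was nearest to *Castor2* (0.884 and 0.902) and 9330175E14Rik (0.862 and 0.838), *Selp* to *Pttg1ip* (0.859 and 0.875) and *Mknk2* (0.810 and 0.754), *Gp1ba* to *Dusp3* (0.863 and 0.662) and *C1galt1* (0.852 and 0.668), and *Fli1* to *Prkca* (0.944 and 0.740). Over the 15 libraries the same 2 genes were nearest for *Itga2b* and *Pf4* only, and for *Vwf* they were *Vcl* (0.877) and *Fpgt* (0.869).

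Since these genes lay together on the LT-HSC side, the sequence before their starts is shown for 4 of them, *Itga2b*, *Pf4*, *Gp1ba* and *Gp9*. Promoter sequences of RefSeq (build GRCm38.p6, which is mm10) were matched by symbol for 6 of the 10, and not for *Vwf*, *Itgb3*, *Clu* and *Fli1*. The 250 bases before the start were searched on both strands for GATAA, bound by GATA factors, for GGAAG, bound by ETS factors such as the product of *Fli1*, and for TGTGGT, bound by Runx factors. GGAAG was present in all 6 windows, as in 64.1% of 32851 promoters. GATAA was present in those of *Gp1ba* (2 matches) and *Gp9* (1 match), as in 22.6% of promoters, and TGTGGT in that of *Gp9* (1 match), as in 14.0%. *Itga2b* held 4 matches to GGAAG, *Gp1ba*, *Gp9*, *Selp* and *Gp1bb* 2 each and *Pf4* 1. A match is a description and not a binding site. The windows are chr11:102469884-102470133 on the minus strand for *Itga2b*, chr5:90772185-90772434 on the plus strand for *Pf4*, chr11:70638872-70639121 on the plus strand for *Gp1ba* and chr6:87777820-87778069 on the plus strand for *Gp9*. They are printed 5′ to 3′ along the gene's strand with matches on either strand in capitals. Most of the *Itga2b* window lies inside the gene as GENCODE draws it, which ends at 102470122.
Itga2b: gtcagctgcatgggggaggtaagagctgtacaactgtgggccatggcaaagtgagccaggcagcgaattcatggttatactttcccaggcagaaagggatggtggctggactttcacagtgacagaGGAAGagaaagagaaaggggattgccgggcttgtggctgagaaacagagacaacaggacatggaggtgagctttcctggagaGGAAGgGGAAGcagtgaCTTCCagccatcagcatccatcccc
Pf4: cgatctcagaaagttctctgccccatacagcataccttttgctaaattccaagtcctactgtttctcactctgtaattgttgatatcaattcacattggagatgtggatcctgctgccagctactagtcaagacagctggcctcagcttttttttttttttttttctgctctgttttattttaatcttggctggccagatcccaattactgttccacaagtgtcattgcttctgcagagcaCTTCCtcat
Gp1ba: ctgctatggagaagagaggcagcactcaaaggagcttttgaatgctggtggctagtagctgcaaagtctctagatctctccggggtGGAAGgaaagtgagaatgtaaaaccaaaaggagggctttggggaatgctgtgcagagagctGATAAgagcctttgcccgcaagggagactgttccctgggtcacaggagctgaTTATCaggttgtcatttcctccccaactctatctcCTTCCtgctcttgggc
Gp9: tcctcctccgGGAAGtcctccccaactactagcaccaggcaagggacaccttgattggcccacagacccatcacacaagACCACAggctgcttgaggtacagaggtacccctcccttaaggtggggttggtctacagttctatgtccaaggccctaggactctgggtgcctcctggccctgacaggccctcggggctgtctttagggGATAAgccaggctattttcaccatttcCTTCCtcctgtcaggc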

How the data were processed

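RNA-seq of 36 sorted samples was used. The deposited values were expected counts per gene that the authors obtained with RSEM, and as deposited they were already rounded, with 0 values that were not whole. The submitters' processing notes name Bowtie2, RSEM 1.2.31, DESeq2 and build mm10, while the study's methods name STAR as the aligner and another RSEM version, which was not resolved. Ensembl identifiers were matched to symbols for 37570 of 38887 genes (99.63% of counts). The members and the lists were chosen with earlier results of these data known.

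Counts were tested in R 4.3.3 with edgeR 4.0.16: filterByExpr, TMM factors, robust dispersions and the quasi-likelihood test, its p-values adjusted over all genes tested (Benjamini-Hochberg, 0.05). LT-HSC and HPC-1 were compared in 1 model of all groups, and agents and genotypes in a model per cell type. The steps were also run on simulated counts with the same dispersion for all genes, and nothing about the results above is read from that run. Named genes were the members, up to 3 called genes in each direction per list by adjusted p, the most abundant and the defining genes of each marker list (LT-HSC, HPC-1, endothelium, intestinal epithelium, erythroid cells, granulocytes, B cells, T cells, and mature megakaryocytes and platelets) and the 2 genes most like each member, of which part are given. Some items are not reported here. Of genes outside this rule, *Runx1* and *Xist* were chosen after their values were seen, and 2 interactions after the others were seen. *Il27ra* was named as a check of the labels. List genes were also named where they failed the filter on low counts, over all libraries or within a cell type. Exon lengths came from GENCODE. No replicate libraries were identical.

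Alternatives were upper-quartile factors, DESeq2 1.42.0, limma-voom (limma 3.58.1), no filter, a mean of at least 10 counts, the compared groups only, libraries under 4000000 counts, a Y-linked covariate, a replicate block, each library omitted in turn and both doubtful libraries omitted, and, chosen after seeing the data, the omission of these and HPC-1 *Apoe*-/- Ang II replicate 3.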

Additional observations from a re-analysis of the deposited data

Results flagged for a closer look

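Of 38 groups of 4 libraries examined, 3 held a value whose gap to the nearest other, divided by the range of the group, exceeded 0.829, and chance gives about 1 in 20 groups. All were low levels in HPC-1 under Ang II. *Vwf* was 0.695 CPM in *Il27ra*-/- replicate 2, against 3.73 to 3.76 CPM in the others (gap over range 0.989). *Clu* was 6.26 CPM in the same library, against 0.196 to 1.15 CPM (0.842). *Gp1bb* was 0.807 CPM in *Il27ra*+/- replicate 4, with the others at 0 (1.000), a ratio that any value above 0 gives beside 3 values of 0, so that nothing is read from its 5 counts in a library of 6318379.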

How the results depend on the processing

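Counts of the 10 genes called were recomputed in 477 combinations of comparison and setting, and 461 were within 1.5 times the reported count. Most of these combinations recompute a reported count of 0, so that this share says little about the counts above 0. For LT-HSC against HPC-1 in *Il27ra*-/- under PBS, 11 of 18 settings fell outside that range. In 450 settings for the fold changes of single genes between LT-HSC and HPC-1, 0 turned direction and 7 lost the call, all of *Selp*. In *Il27ra*-/- mice under PBS, 4 of 10 were higher in LT-HSC, against 7 with DESeq2, 0 with limma-voom, 7 with both doubtful libraries omitted, 8 with HPC-1 *Apoe*-/- Ang II replicate 3 omitted too (chosen after seeing the data), 0 over the compared groups only and 0 to 7 with each library omitted in turn. With no filter on low counts, counts of 0 became 1 for the interaction of cell type and Ang II in *Il27ra*-/-, 2 for Ang II in *Il27ra*-/- LT-HSC, 1 for *Il27ra*+/- against *Apoe*-/- LT-HSC under Ang II, 2 for *Il27ra*-/- against *Il27ra*+/- LT-HSC under Ang II and 4 for the same genotypes under PBS. The cause was not tested.

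Over the whole table, genes called between LT-HSC and HPC-1 moved from 1382 to between 507 and 2144 in *Il27ra*+/- under PBS, from 159 to between 0 and 1617 in *Il27ra*-/- under PBS, from 1868 to between 611 and 2554 in *Apoe*-/- under Ang II, from 2676 to between 1124 and 3312 in *Il27ra*+/- under Ang II, and from 2257 to between 662 and 3359 in *Il27ra*-/- under Ang II. Within LT-HSC under Ang II they moved from 277 to between 29 and 833 for *Il27ra*-/- against *Apoe*-/- and from 136 to between 16 and 565 for *Il27ra*+/- against *Apoe*-/-. The interaction of cell type with *Il27ra*-/- against *Apoe*-/- under Ang II moved from 9 to between 3 and 192 genes, and *Il27ra*-/- against *Apoe*-/- HPC-1 under PBS from 2 to between 0 and 52. Where 0 genes were called, no filter gave 44, 100 and 111 in the other interactions fitted that way, 57 and 104 for Ang II in *Il27ra*+/- and *Il27ra*-/- LT-HSC, 193 and 249 for *Il27ra*-/- against *Il27ra*+/- LT-HSC under PBS and Ang II, and at most 33 within HPC-1. The interactions added later are not given without the filter.

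The labels do not say whether replicate numbers pair the samples. Of 16 pairs of LT-HSC and HPC-1 libraries of 1 condition with the same number, 7 correlated over 0.1 (r from −0.20 to 0.32, median 0.07). These values, taken as deviations from group means, do not settle whether the libraries of a pair share an animal. With replicate number as a block, 10 genes were higher in LT-HSC in the mean over conditions and 4 in *Il27ra*-/- under PBS, and with LT-HSC and HPC-1 taken as paired, 10 and 3. The share of all genes called in these fits is not given, so that nothing more is read from these counts. Depth limits *Gp1bb*, *Pf4*, *Clu* and *Gp9* in HPC-1, which were at or under 3 counts in 16, 15, 12 and 8 of 19 libraries, and groups of 1 to 4 libraries limit every comparison of agent or genotype.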
